A study of Mus musculus with 6 samples.

Results

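The genes of Polycomb repressive complex 2 (PRC2) were followed in RNA-seq of mouse leg muscle, in fetuses with and without the long noncoding RNA *SYISL*. The 10 genes were listed by name, with earlier results of these data known: the methyltransferases *Ezh1* and *Ezh2*, the core subunits *Suz12* and *Eed*, the histone-binding subunits *Rbbp4* and *Rbbp7*, and the accessory subunits *Jarid2*, *Mtf2*, *Phf1* and *Phf19*. They were 10 of the 56262 genes in the count table, and all 10 were among the 22071 genes that passed the filter on low counts. The data cover 3 wild-type (WT) and 3 *SYISL* knockout (KO) samples of leg muscle from embryonic day 18.5, with 82054811 to 102233181 counts per sample. The labels name no treatment and no strain. WT was mated with WT and KO with KO, with WT mice supplied by an animal center and KO mice from a line made earlier, so the genotype of the fetus cannot be told apart from that of its mother or from its colony. Nothing states that the samples came from separate fetuses or litters, so p-values measure only the spread between these samples, which may be technical. *Xist*, expressed by female cells, and Y-linked genes, expressed by male cells, were both present in 3 of the 6 samples (WT replicate 3, KO replicates 2 and 3). Nothing states whether tissue of several fetuses was pooled, so n and SD count samples and not fetuses. *SYISL* overlaps an intron of *Synpo2*, and the counts per gene give no value for *SYISL* itself.

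PRC2 is the enzyme complex that methylates lysine 27 of histone H3, a mark of silenced genes. *Ezh1* and *Ezh2* encode alternative catalytic subunits, *Ezh2* being known as the form of proliferating cells and *Ezh1* as the form of resting and differentiated cells, and in muscle the share of *Ezh1* is known to rise as myoblasts leave the cell cycle. *Suz12* and *Eed* hold the core together, while *Jarid2* and the Polycomb-like proteins encoded by *Mtf2*, *Phf1* and *Phf19* belong to separate forms of the complex and guide it to chromatin. *SYISL* has been described in myoblasts as an RNA that binds *Ezh2* protein and brings PRC2 to muscle genes, and the comparison asks whether the genes of the complex themselves differed in muscle without it.

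In KO muscle *Ezh1* was 26.0% higher than in WT, *Ezh2* fell by 19.4%, and the ratio of *Ezh1* to *Ezh2* was 1.56-fold higher. *Phf19* was 19.8% higher, *Jarid2* fell by 8.80% and *Rbbp7* fell by 10.8%. Thus, 2 members rose and 3 fell at an adjusted p under 0.05 (edgeR's quasi-likelihood test, Benjamini-Hochberg adjustment over all genes tested), where 21.9% of all genes tested rose, 23.1% fell and 45.0% passed in either direction. With 5 of 10 members passing, the share was near that of all genes. A fold change over 1.5 in addition, the threshold of a DEG, was met by 0 members with edgeR, DESeq2 and limma-voom alike, against 16.7% of all genes with edgeR. At an unadjusted p under 0.05 there were 7 members. The WT and KO values did not overlap for 8 of 10 members, against 55.9% of all genes. The median log2 fold change (KO over WT) was -0.08 for the members and -0.0041 for all genes, and the median size of the change was 0.15 and 0.22 on the log2 scale.

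The start regions of *Ezh1*, *Ezh2* and *Phf19* are shown because these were the members whose change passed the test in all 14 alternative analyses of the counts. Each is 250 bases before to 50 bases after the annotated start (RefSeq, GRCm38.p6, minus strand), written 5′ to 3′. The gene spans given below are from GENCODE M21, whose starts can differ from these. The *Ezh2* window lies wholly inside its gene span. Capitals mark an E2F word (TTTCCCGC, TTTCGCGC, TTTGCCGC or TTTGGCGC, on either strand), since E2F factors are known to drive *Ezh2* in dividing cells.
*Ezh1*, chr11:101226414-101226713: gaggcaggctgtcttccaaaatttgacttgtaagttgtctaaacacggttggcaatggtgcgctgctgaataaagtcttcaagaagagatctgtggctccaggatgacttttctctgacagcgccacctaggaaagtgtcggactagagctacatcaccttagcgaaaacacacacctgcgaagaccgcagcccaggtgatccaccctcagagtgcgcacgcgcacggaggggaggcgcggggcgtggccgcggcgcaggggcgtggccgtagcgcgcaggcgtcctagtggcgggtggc
*Ezh2*, chr6:47594981-47595280: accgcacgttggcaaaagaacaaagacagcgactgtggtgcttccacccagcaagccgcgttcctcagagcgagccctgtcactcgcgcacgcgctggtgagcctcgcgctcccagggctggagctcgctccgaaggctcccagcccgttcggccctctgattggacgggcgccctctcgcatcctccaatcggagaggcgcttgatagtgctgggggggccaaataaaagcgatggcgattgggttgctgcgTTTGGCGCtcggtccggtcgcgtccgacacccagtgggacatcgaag
*Phf19*, chr2:34913927-34914226: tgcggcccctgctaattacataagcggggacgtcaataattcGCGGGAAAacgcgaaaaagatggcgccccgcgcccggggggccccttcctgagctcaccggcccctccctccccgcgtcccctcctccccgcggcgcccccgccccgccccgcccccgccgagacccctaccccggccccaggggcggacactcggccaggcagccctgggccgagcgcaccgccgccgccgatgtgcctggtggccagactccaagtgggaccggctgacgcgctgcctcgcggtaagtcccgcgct
An E2F word was found in the windows of *Ezh2*, *Phf19* and *Suz12*, 3 of the 10 members, and in 2.26% of the 32851 promoter windows of the same length. In *Ezh2* it lay on the strand shown, from base 254 of the window, and in *Phf19* on the opposite strand, from base 43. The word was thus present in a member that fell, in a member that rose and in *Suz12*, which did not pass the test. The muscle E-box CAGCTG, present in 16.3% of all windows, was in none of the windows shown, but was in windows of *Jarid2*, *Mtf2* and *Rbbp7*, also 3 of the 10 members. *Jarid2* and *Mtf2* each also had a window without it. The shares over all windows count windows, so they are not a like measure for counts of genes. The *Ezh1* window held 23 CpG dinucleotides, 0.882 of the number its base composition gives, against 31 (0.999) for *Ezh2* and 38 (0.952) for *Phf19*. A word match describes these letters and does not show a bound site.

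*Ezh1* (ENSMUSG00000006920.14, chr11:101191115-101226463, minus strand, mm10), the methyltransferase of differentiated cells, was at 34.1, 35.8 and 34.2 CPM in WT and at 44.9, 42.5 and 43.7 CPM in KO. CPM are counts scaled to a common library total, here with TMM factors, which correct for differences in library composition. All 3 KO samples were above all 3 WT samples, and the means were 34.7 ± 0.971 and 43.7 ± 1.22 CPM (SD, n = 3 each). The log2 fold change was 0.33 (SE 0.041, edgeR adjusted p = 1.40e-04). It rested on 2959 to 3605 counts per WT sample and 4049 to 4250 per KO sample. It passed the test in 14 of 14 alternative analyses, with a log2 fold change of 0.27 to 0.40.

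*Ezh2* (ENSMUSG00000029687.16, chr6:47530139-47595341, minus strand), the methyltransferase of dividing cells, was at 72.9, 74.5 and 74.0 CPM in WT and at 61.1, 60.0 and 57.4 CPM in KO. Every KO sample was below every WT sample, with means of 73.8 ± 0.793 and 59.5 ± 1.91 CPM (SD, n = 3 each). The log2 fold change was -0.31 (SE 0.037, edgeR adjusted p = 1.29e-04), from 6153 to 7814 counts per WT sample and 5581 to 5728 per KO sample. It passed in 14 of 14 alternatives, at -0.38 to -0.24. Among all genes tested, the size of the change ranked at percentile 64.3 for *Ezh1* and 61.9 for *Ezh2*.

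**Figure D1:**
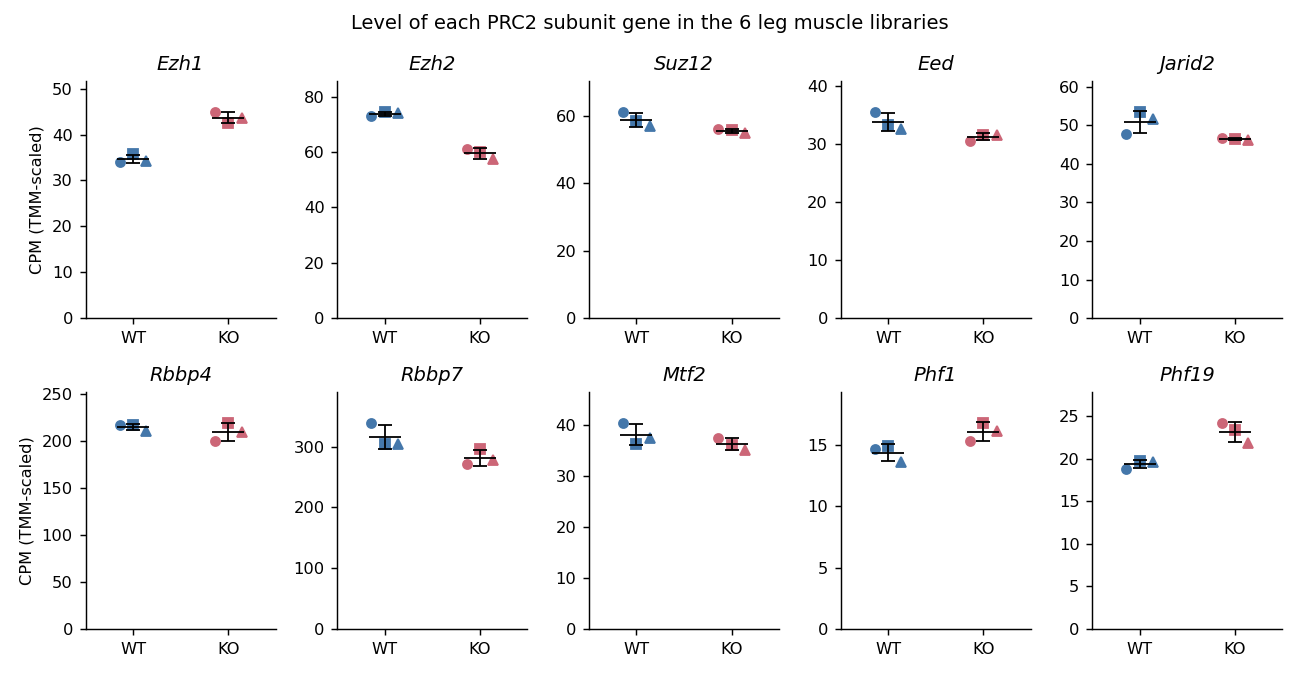
TMM-scaled CPM (y axis, from 0, a scale per panel) of each PRC2 member in WT (blue) and KO (red); the points are the 3 samples of a group (circle, square and triangle for replicates 1, 2 and 3, which are not stated to pair the groups), the long line is the mean and the bars are ± SD. *Ezh1* and *Phf19* lie higher and *Ezh2* lower in every KO sample, whereas the WT and KO points of *Rbbp4* and *Mtf2* overlap.

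The ratio of *Ezh1* to *Ezh2* was taken within each sample as counts per exon base, since the genes differ in length. The WT samples had ratios of 0.420, 0.432 and 0.414, and the KO samples of 0.660, 0.636 and 0.684. The groups did not overlap, with means of 0.422 ± 0.0090 and 0.660 ± 0.0237 (SD, n = 3 each) and a log2 change of 0.65. A two-sided exact permutation test gave p = 0.1, the smallest that 3 against 3 samples can give, and 0.175 after adjustment over the 7 ratios compared, so the threshold could not be reached. *Ezh1* made up 29.7% ± 0.442 of the summed methyltransferase level in WT and 39.7% ± 0.860 in KO (SD, n = 3 each). With the longest transcript as the length, the ratio was lower in both groups, 0.311 in WT and 0.487 in KO, and *Ezh2* remained the higher gene in either group.

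The sum of both methyltransferases differed less when set against *Suz12*, which itself had a log2 fold change of -0.08. *Ezh1* plus *Ezh2* gave a ratio of 1.25, 1.35 and 1.36 in the WT samples and of 1.34, 1.30 and 1.30 in the KO samples. The groups overlapped, with means of 1.32 ± 0.0591 and 1.32 ± 0.0216 (SD, n = 3 each), a log2 change of -0.0048 and an exact permutation p of 0.9 (two-sided, adjusted 0.9). The lowest and the highest of the 6 ratios were both WT samples.

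**Figure D2:**
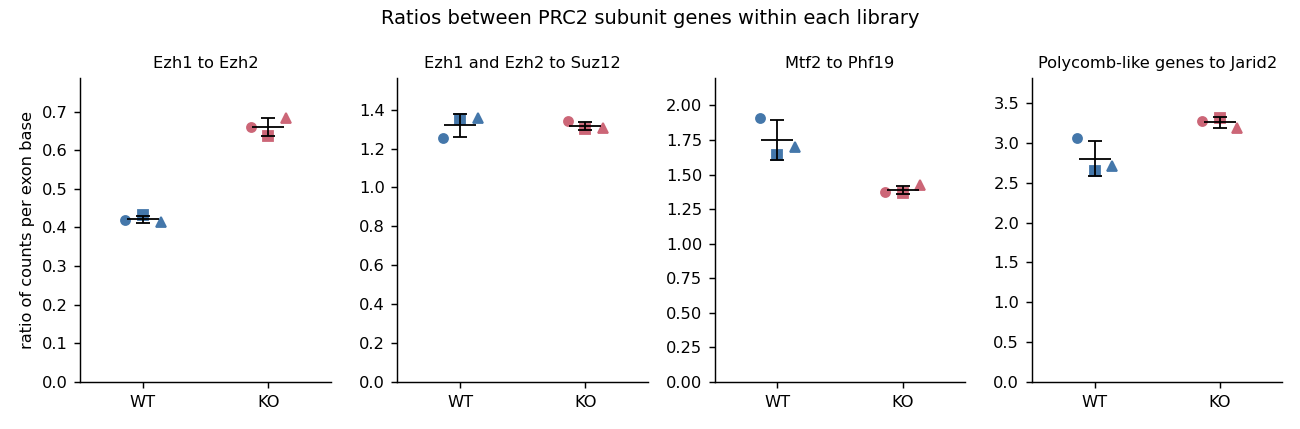
Ratio of counts per exon base (y axis, from 0, a scale per panel) between PRC2 genes within each WT (blue) and KO (red) sample; the points are samples, the long line the mean and the bars ± SD. The *Ezh1* to *Ezh2* ratio is 0.414 to 0.432 in WT and 0.636 to 0.684 in KO, whereas the ratio of both to *Suz12* overlaps between the groups.

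Of the core subunits, *Suz12* (ENSMUSG00000017548.15, chr11:79993106-80034123, plus strand), the scaffold of the complex, was at 61.2, 58.4 and 57.1 CPM in WT and 56.0, 55.8 and 54.9 CPM in KO. *Eed* (ENSMUSG00000030619.10, chr7:89954654-89980983, minus strand), which binds the methylated histone and stimulates the enzyme, was at 35.5, 33.3 and 32.6 CPM in WT and 30.5, 31.6 and 31.5 CPM in KO. Neither overlapped between the groups, yet neither passed the test. The log2 fold change was -0.08 for *Suz12* (SE 0.039, edgeR adjusted p = 0.106) and -0.11 for *Eed* (SE 0.046, adjusted p = 0.0703). The *Suz12* to *Eed* ratio per exon base had a log2 change of 0.030 (exact permutation p = 0.4, adjusted 0.467).

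*Rbbp4* and *Rbbp7* encode close paralogs that bind histones and are shared with other complexes, among them NuRD and the chromatin assembly factor CAF-1. *Rbbp7* (ENSMUSG00000031353.13, chrX:162760402-162779092, plus strand) was at 339, 305 and 304 CPM in WT and 271, 297 and 278 CPM in KO, without overlap (log2 fold change -0.16, SE 0.058, edgeR adjusted p = 0.0437). It passed in 7 of 14 alternatives. The highest value was that of WT replicate 1, and without that sample the adjusted p was 0.117. The call was also lost without WT replicate 3 (edgeR adjusted p = 0.0574), KO replicate 1 (0.121) or KO replicate 3 (0.173). *Rbbp7* is on the X chromosome, and WT replicate 1 was the only sample with hardly any *Xist*, the RNA of the inactive X (1.48 CPM, against 413 to 837 CPM in the others). In a fit that also held each sample's share of Y-linked reads, added after seeing the data, the adjusted p of *Rbbp7* was 0.0517. That fit had 3 members higher and 2 lower, with *Phf1* passing as higher (log2 fold change 0.17, edgeR adjusted p = 0.0455). *Rbbp4* (ENSMUSG00000057236.10, chr4:129307100-129335370, minus strand) had overlapping values of 211 to 217 CPM in WT and 199.8 to 219.7 CPM in KO (log2 fold change -0.037, SE 0.045, edgeR adjusted p = 0.550).

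Of the accessory subunits, *Jarid2* (ENSMUSG00000038518.15, chr13:44729474-44921643, plus strand), which binds nucleosomes and modulates the enzyme, was at 47.8, 53.4 and 51.6 CPM in WT and 46.8, 46.4 and 46.2 CPM in KO. The KO samples lay close together, just below the lowest WT sample. Its log2 fold change of -0.13 (SE 0.046, edgeR adjusted p = 0.0393) passed in only 6 of 14 alternatives, and leaving out 1 sample, WT replicate 2 or 3 or any KO sample, gave adjusted p-values of 0.0650 to 0.126.

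The Polycomb-like genes encode proteins that bind DNA and the histone mark of transcribed genes. *Phf19* (ENSMUSG00000026873.9, chr2:34893757-34914026, minus strand) was at 18.8, 19.7 and 19.5 CPM in WT and 24.2, 23.4 and 21.9 CPM in KO. All KO samples were higher, with means of 19.3 ± 0.476 and 23.2 ± 1.18 CPM (SD, n = 3 each) and a log2 fold change of 0.26 (SE 0.055, edgeR adjusted p = 0.00383), and 14 of 14 alternatives passed. *Phf1* (ENSMUSG00000024193.8, chr17:26933052-26937908, plus strand) was at 14.7, 14.9 and 13.6 CPM in WT and 15.3, 16.8 and 16.2 CPM in KO. The groups did not overlap, but the log2 fold change, 0.16, missed the threshold (SE 0.062, edgeR adjusted p = 0.0595). It passed in 5 of 14 alternatives. *Mtf2* (ENSMUSG00000029267.17, chr5:108065674-108109004, plus strand) overlapped, at 36.4 to 40.5 CPM in WT and 35.2 to 37.6 CPM in KO (log2 fold change -0.07, SE 0.050, edgeR adjusted p = 0.271).

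Per exon base, the WT samples had *Mtf2* to *Phf19* ratios of 1.91, 1.64 and 1.70, and the KO samples of 1.37, 1.37 and 1.42. It was lower in every KO sample (log2 change -0.33, two-sided exact permutation p = 0.1, adjusted 0.175). The sum of the 3 Polycomb-like genes, set against *Jarid2*, had a ratio of 2.80 ± 0.221 in WT and 3.26 ± 0.0673 in KO, without overlap (log2 change 0.22, exact permutation p = 0.1, adjusted 0.175). The share of *Mtf2* among them was 45.7% in WT and 40.9% in KO. The *Mtf2* to *Phf1* ratio overlapped between the groups (log2 change -0.23, exact permutation p = 0.2), and the *Rbbp4* to *Rbbp7* ratio did not (0.227 in WT, 0.247 in KO, exact permutation p = 0.1, adjusted 0.175). The log2 change of the latter was 0.13, and 0.08 without WT replicate 1, the sample with the highest *Rbbp7*.

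**Figure D3:**
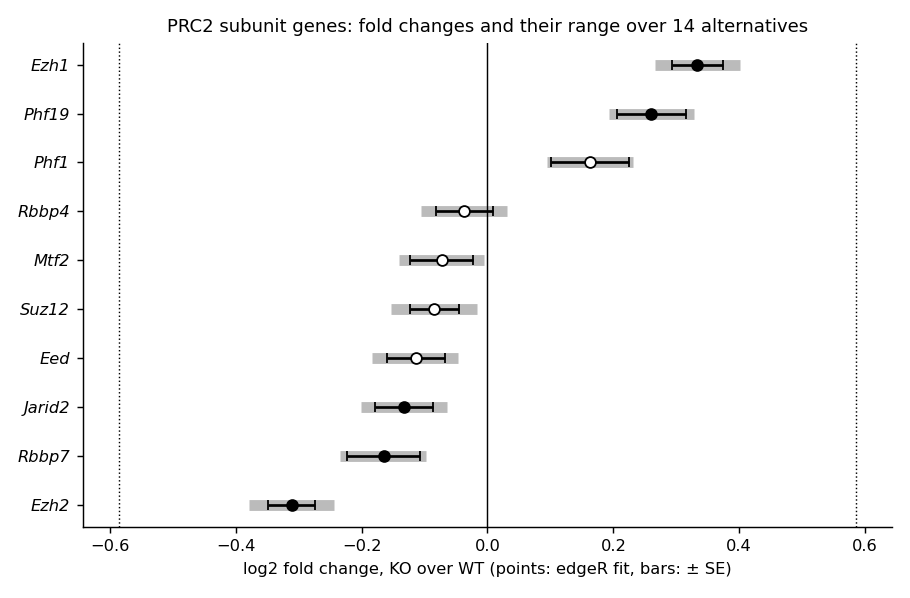
Log2 fold change, KO over WT (x axis), of the 10 PRC2 members (y axis); points are the edgeR values, filled where the adjusted p is under 0.05, black bars are ± SE, gray bars the range over 14 alternative analyses, and dotted lines the 1.5-fold threshold. The members lie between -0.31 and 0.33, inside the dotted lines, and the gray bar of *Rbbp4* alone crosses 0.

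Levels can be compared between genes as RPKM, the CPM divided by the length of a gene's exons in kilobases, taken over the union of its exons. In WT *Rbbp7* was the highest at 108.6 ± 6.98 RPKM, followed by *Rbbp4* at 24.6 ± 0.373, *Suz12* at 11.9 ± 0.425, *Ezh2* at 11.1 ± 0.119 and *Eed* at 8.82 ± 0.397 RPKM (SD, n = 3). *Mtf2* was at 6.70 ± 0.372, *Jarid2* at 5.24 ± 0.294, *Ezh1* at 4.66 ± 0.131, *Phf1* at 4.12 ± 0.201 and *Phf19* at 3.84 ± 0.0945 RPKM. In KO, *Ezh2* at 8.91 ± 0.287 RPKM was still above *Eed* at 8.15 ± 0.153, while *Ezh1* at 5.87 ± 0.164 lay above *Jarid2* at 4.78 ± 0.0283 RPKM. *Phf1* and *Phf19* overlapped in both genotypes and cannot be ordered. With the longest transcript as the length, *Ezh2* (26.5 RPKM in WT) and *Eed* (16.3) stood above *Suz12* (13.5), and *Ezh1* (8.25) stood above *Jarid2* (6.10) already in WT, so the order of these genes depends on the isoform that muscle uses, which counts per gene do not give.

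Reads of a member and of another gene cannot always be told apart, as the strand setting of the counting is not given in the sources used here. *Phf1* was the most exposed, with 39.3% of its exon bases overlapped by *Cuta* on the opposite strand. *Rbbp4* was overlapped over 9.10% by *Gm26722* and 8.94% by *Sync*, *Mtf2* over 6.93% by *Tmed5*, *Eed* over 6.82% by *E230029C05Rik*, *Rbbp7* over 5.98% by *Txlng*, *Suz12* over 3.60% by *Gm26563* and *Ezh2* over 2.61% by *Gm26625*. *Ezh1*, *Jarid2* and *Phf19* had no such overlap. No stretch of 100 bases was shared between transcripts of any 2 members, and 0% of the 100-base windows of *Ezh1*, *Ezh2*, *Jarid2* and *Phf19* were found in transcripts of another gene.

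The 5 genes with the profile nearest to *Ezh1*, by the root mean square difference of centered log2 CPM over the 6 samples among 12370 genes with a mean of at least 5 CPM, were *Zbtb4*, *Slc9a9*, *Penk*, *Adcy4* and *Zc3hav1*. Their differences were 0.018 to 0.025, and their log2 fold changes 0.32 to 0.36. Nearest to *Ezh2* were *Nme7*, *Mtmr4*, *Cdc25a*, *Exosc2* and *Phf5a*, with differences of 0.0094 to 0.016 and log2 fold changes of -0.32 to -0.29. Both lists were picked by nearness over these same samples, so the similar fold changes follow from the choice. *Cdc25a* encodes a phosphatase that drives entry into and passage through the cell cycle. *Penk* encodes the precursor of enkephalins.

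RNA of markers of other cell types and states differed between the groups. Of 20 proliferation markers, 17 fell and 0 rose (median log2 fold change -0.26), and their summed level was 1905 to 1993 CPM in WT and 1630 to 1773 CPM in KO. In bulk tissue, fewer cells of a type and less RNA per cell cannot be told apart. Relative to 1000 counts of these markers, *Ezh2* stood at 38.3, 37.4 and 38.0 counts in the WT samples and at 34.5, 36.8 and 35.0 in the KO samples, a comparison added after seeing the data. *Ezh2* was still lower in each KO sample, but the log2 change was -0.10 in place of -0.31 (two-sided exact permutation p = 0.1). The sum is weighted toward abundant markers such as *Mki67* (log2 fold change -0.11, not passed), so this remainder depends on the weighting. Single markers had log2 fold changes of -0.38 to -0.10, a range that holds the -0.31 of *Ezh2*. Of 10 muscle fiber markers, 9 rose and 0 fell, and their sum was 16260 to 18306 CPM in WT and 32377 to 38709 CPM in KO. Per 1000 of these counts, *Ezh1* was 1.99 ± 0.182 in WT and 1.21 ± 0.157 in KO (SD, n = 3 each), so against fiber markers *Ezh1* was lower in KO (log2 change -0.73, exact permutation p = 0.1). Single fiber markers had log2 fold changes from -0.04 (*Myh3*) to 1.59 (*Myh8*), so this value depends on the markers summed and is not a level per fiber.

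Markers of skin, blood and other tissue moved as well. All 12 keratinocyte markers fell (median log2 fold change -3.61), from a sum of 17547 to 25729 CPM in WT, highest in WT replicate 2, to 1014 to 1135 CPM in KO. All 6 markers of red blood cells fell, from 3934 to 5174 CPM to 546 to 665 CPM, and 3 of 5 cartilage markers fell and 1 rose. The markers of macrophages rose in 6 of 6, of fat cells in 5 of 5, of glia in 5 of 5, of fibroblasts in 4 of 6 and of endothelium in 4 of 6 cases, while of 7 myogenic progenitor markers 2 rose and 3 fell. No marker listed was at 0 in all samples, and muscle fiber markers were present in each sample at the sums given above. *Xist* and Y-linked RNA were found together in WT replicate 3 and KO replicates 2 and 3, with *Xist* at 413 to 604 CPM and *Ddx3y* at 18.8 to 20.2 CPM. WT replicate 2 and KO replicate 1 held *Xist* with *Ddx3y* at 0.0121 and 0.0107 CPM. Beyond the marker denominators and the fit with the Y-linked share given above, the part of these cell types and of sex in the members' changes was not tested.

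Among further genes of the PRC2 forms, 4 of 5 listed were in the table, and 1 of these fell. Counts here and in the lists below are to be read beside all genes tested, of which 21.9% rose and 23.1% fell. *Epop*, which joins PRC2 to elongin, was at 2.61, 2.48 and 2.83 CPM in WT and 1.51, 1.29 and 1.41 CPM in KO. It was lower in every KO sample (log2 fold change -0.91, SE 0.107, edgeR adjusted p = 1.08e-04) and met the fold threshold that the members did not. *Aebp2*, the partner of *Jarid2*, *Lcor* and *Lcorl* had log2 fold changes of -0.07, -0.19 and 0.07 and did not pass.

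PRC1, the complex that binds the mark of PRC2 and ubiquitinates histone H2A, had 21 genes tested, of which 4 rose and 9 fell (median log2 fold change -0.10). Among those that fell were some of the chromodomain genes, which read the mark, while the chromodomain genes *Cbx6* and *Cbx8* did not pass. *Cbx2* was at 24.9, 30.0 and 26.3 CPM in WT and 18.7, 15.9 and 16.5 CPM in KO (log2 fold change -0.67, SE 0.084, edgeR adjusted p = 1.72e-04), and *Cbx7* had a log2 fold change of -0.53. The catalytic subunit gene *Rnf2* had a log2 fold change of -0.20 and its partner *Bmi1* of -0.14. *Phc2*, *L3mbtl2*, *Rybp* and *Kdm2b* fell by 0.28, 0.27, 0.26 and 0.21 on the log2 scale. The genes that rose were *Pcgf5* (0.36), *Pcgf2* (0.20), *Phc3* (0.20) and *Scmh1* (0.19). No test of the list was made. With library size only, 2 genes rose, *Phc3* and *Scmh1* no longer passing, and *Bmi1*, *Kdm2b* and *Phc3* each lost the call without at least 1 sample (adjusted p = 0.0547 to 0.113).

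The H3K27 demethylase genes *Kdm6b* and *Kdm6a*, whose products remove the mark, had log2 fold changes of 0.02 and 0.13, and neither passed. Without WT replicate 2, *Kdm6a* passed as higher (0.32, edgeR adjusted p = 0.0246). *Kdm6a* escapes X inactivation and was lowest in WT replicate 1, at 26.8 CPM against 35.4 to 44.3 CPM in the others. Of the H2A deubiquitinase complex, which opposes PRC1, 1 of 6 genes fell (*Asxl3*, -0.19), a call lost without WT replicate 1 or 3 or KO replicate 2 or 3 (adjusted p = 0.0678 to 0.0871). The COMPASS methyltransferases and their core, which act on lysine 4 of histone H3 and oppose Polycomb, had 12 genes tested, of which *Kmt2c* rose (0.12) and *Wdr5* (-0.18), *Ash2l* (-0.17) and *Men1* (-0.15) fell. The COMPASS count depended on the scaling, with 1 gene lower under upper-quartile factors and 8 under library size alone. It was 6 without WT replicate 1 and 7 with the Y-linked share as a covariate. *Kmt2c* lost its call without WT replicate 2 or 3 or KO replicate 3, and *Men1* without these or KO replicate 2.

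The partners of *Rbbp4* and *Rbbp7* in NuRD, Sin3 and CAF-1 had 15 genes tested, of which 9 fell and 0 rose (median log2 fold change -0.14). The largest changes were those of the NuRD genes *Mta3* (-0.50, edgeR adjusted p = 2.18e-04), *Gatad2a* (-0.38, 1.75e-04) and *Chd3* (-0.31, 4.85e-03). The replication-coupled histone chaperone genes *Chaf1a* and *Chaf1b* had log2 fold changes of -0.31 and -0.29. *Mta2*, *Hdac1*, *Sin3a* and *Sin3b* fell by 0.26, 0.25, 0.14 and 0.14 on the log2 scale, *Sin3a* not without WT replicate 3 or KO replicate 2 or 3 (adjusted p = 0.0705 to 0.0800). Between 7 and 13 genes of this list fell, and 0 rose, under the alternatives.

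Of 11 E2F and pocket protein genes, which govern entry into S phase, 2 rose and 4 fell (median log2 fold change -0.05). Among all genes tested 21.9% rose and 23.1% fell, and no test of the list was made. *E2f2* (-0.40), *E2f8* (-0.23), *E2f3* (-0.21) and *E2f4* (-0.19) fell, while the repressor *E2f6* (0.36) and the pocket protein gene *Rbl2* (0.16) rose. *E2f8* lost its call without WT replicate 2 or 3 or KO replicate 2 or 3 (adjusted p = 0.0607 to 0.0817), and *Rbl2* without KO replicate 3 (0.0572). *E2f1* had a log2 fold change of 0.10 and did not pass, but did without WT replicate 2 (0.17, edgeR adjusted p = 0.0309) and with upper-quartile factors (0.0449).

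**Figure D4:**
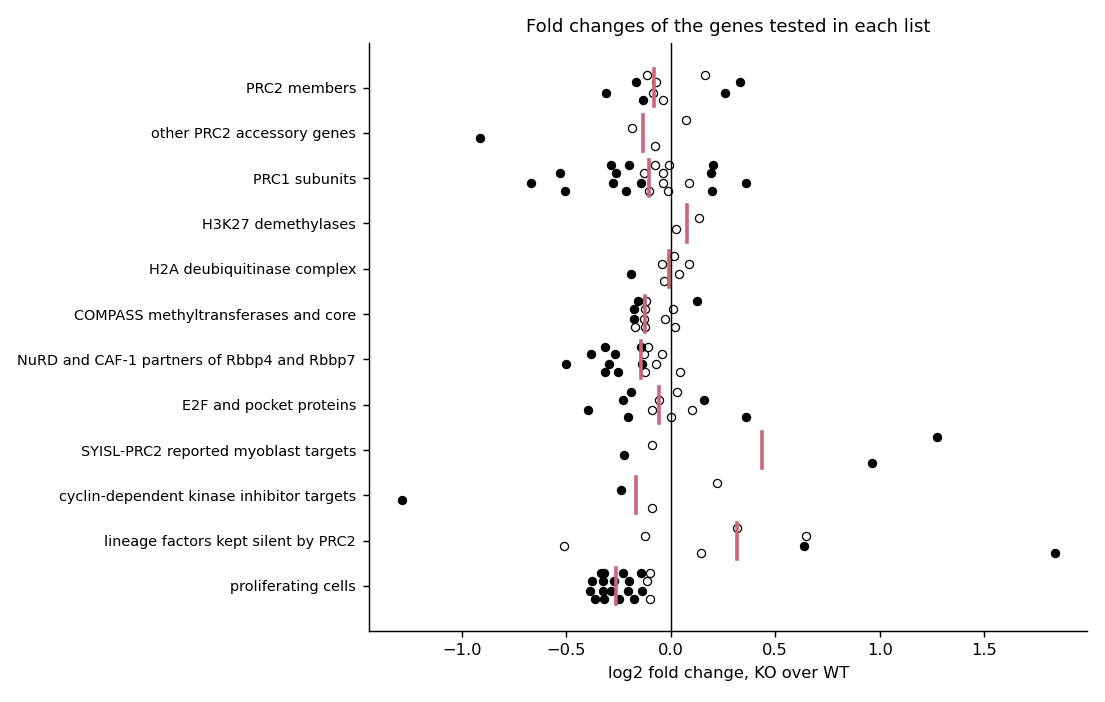
Log2 fold change, KO over WT (x axis), of each gene tested in the PRC2 members and related lists (y axis); filled points have an edgeR adjusted p under 0.05 and the red lines are medians. The PRC2 members spread to both sides of 0, with a median of -0.08, whereas the 20 proliferation markers all lie below 0.

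Genes described as targets of *SYISL* and PRC2 in cultured myoblasts did not move one way. *Ckm*, the creatine kinase of muscle, was at 1274, 1087 and 1183 CPM in WT and 2338, 3196 and 3028 CPM in KO (log2 fold change 1.27, SE 0.115, edgeR adjusted p = 1.98e-05). *Myh4*, a fast myosin, was at 20.1, 14.4 and 14.8 CPM in WT and 26.6, 33.5 and 35.8 CPM in KO (log2 fold change 0.96, SE 0.14, adjusted p = 4.42e-04). It is a close paralog of other myosin genes, between which the counting can split reads, so its value is uncertain. *Myog*, the factor that starts muscle differentiation, was at 139.9, 150.4 and 150.2 CPM in WT and lower in each KO sample, at 123.1 to 128.1 CPM (log2 fold change -0.22, SE 0.042, adjusted p = 0.00212). *Cdkn1a*, which encodes the cell cycle inhibitor p21, overlapped between the groups (log2 fold change -0.09, adjusted p = 0.248).

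Of 4 cyclin-dependent kinase inhibitor genes known as PRC2 targets, 2 fell and 0 rose. *Cdkn2b* was at 1.35, 1.33 and 1.44 CPM in WT and 0.608, 0.577 and 0.504 CPM in KO (log2 fold change -1.29, edgeR adjusted p = 4.82e-05), and *Cdkn1c* fell by 0.24 on the log2 scale, but did not pass without KO replicate 2 (adjusted p = 0.0689) or 3 (0.0675). *Cdkn2a* had a log2 fold change of 0.22 and did not pass.

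Of 20 developmental factors that PRC2 is known to keep silent outside their lineage, 13 had too few counts to be tested. Of these, *Pdx1*, *Neurog1* and *Olig2* had 0 counts in all samples. Of the 7 tested, 2 rose and 0 fell. Without WT replicate 2 there were 3 that rose, *Sox17* (0.18, edgeR adjusted p = 0.0311) being the addition. In that fit 1 factor that the main filter had removed fell, as was also the case with no filter. A minimum of 10 counts in every sample left *Neurog2* untested and 1 that rose. *Neurog2* was at 0.0634, 0.121 and 0.0568 CPM in WT and 0.224, 0.304 and 0.319 CPM in KO (log2 fold change 1.84, SE 0.333, edgeR adjusted p = 1.65e-03). *Pou4f1*, a factor of sensory neurons, was at 1.66, 1.45 and 1.47 CPM in WT and 2.34, 2.59 and 2.19 CPM in KO (log2 fold change 0.64, SE 0.111, adjusted p = 1.29e-03). Both were higher in each KO sample, at low levels. Glia markers rose in the same samples, from a sum of 326 to 328 CPM to 438 to 473 CPM, and their part in these values was not tested. *Sox17*, *Pax6*, *Nkx2-2*, *Gata4* and *T* had log2 fold changes of 0.14, 0.31, 0.65, -0.51 and -0.12 and did not pass.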

How the data were processed

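RNA-seq of fetal leg muscle from embryonic day 18.5 was used, with 3 WT and 3 *SYISL* KO samples as labelled. Per the methods and the submitters' processing notes, the authors trimmed reads with Trim Galore 0.6.6, mapped them to mm10 with HISAT2 2.2.1 and deposited raw counts per gene from featureCounts 2.0.1, without normalization. Annotation and strand setting are not given in the sources used here. Gene IDs were matched to GENCODE M21 (55227 of 56262).

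Counts were tested in R 4.3.3 with edgeR 4.0.16 (filterByExpr, TMM, quasi-likelihood F-test on genotype, Benjamini-Hochberg adjustment over 22071 genes). The DEG threshold was 1.5-fold at an adjusted p under 0.05. Members, gene lists and the rule for named genes (all members, list genes past the threshold or in the *SYISL* list, the 5 profiles nearest to *Ezh1* and *Ezh2*) were chosen with earlier results of these data known. Other genes of the lists are named with their values as well. The values of 2 list genes are not reported here.

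Alternatives were other scaling factors (RLE, upper quartile, library size only), other filters (none, at least 10 counts), DESeq2 1.42.0, limma-voom 3.58.1, a replicate block, each sample left out and, for ratios, transcript length. Markers as denominators and the Y-linked covariate were added after seeing the data. Steps were tested on simulated data. Counting-based precision is that of counting error only.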

Additional observations from a re-analysis of the deposited data

How the results depend on the processing

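The rise of *Ezh1* and *Phf19* and the fall of *Ezh2* kept their direction and passed in all 14 alternatives planned for single genes. The number of members that fell was 3, but 1 with upper-quartile factors, 5 with library size only and 1 with the replicate block, and it was 1 to 2 when a sample was left out (1 without WT replicate 3, KO replicate 1 or KO replicate 3). The members lost were *Jarid2* and *Rbbp7*, and those gained with library size only were *Suz12* (adjusted p = 0.0195) and *Eed* (0.0123). In the edgeR fits, *Jarid2* had an adjusted p of 0.257 with upper-quartile factors and 0.0643 with the block, and 0.0748 with DESeq2, and *Rbbp7* 0.0509 with RLE factors, 0.220 with upper-quartile factors and 0.0900 with the block. *Phf1* passed with upper-quartile factors (0.0113), a minimum of 10 counts (0.0462) and limma-voom (0.0458), and without WT replicate 2 (0.0487) or KO replicate 1 (0.0278). It also passed with the Y-linked share as a covariate (0.0455). *Rbbp4* turned to 0.031 with upper-quartile factors and ranged from -0.071 to 0.0025 when a sample was left out. The *Ezh1* to *Ezh2* ratio was 0.62 to 0.67 on the log2 scale when a sample was left out and 0.65 with the replicate block, and that of both to *Suz12* ranged from -0.042 to 0.016. With the longest transcript as the length, the log2 change of both to *Suz12* was -0.047. *Ezh1* relative to muscle fiber markers was -0.73, a direction opposite to its CPM. The cause of these changes was not tested. Samples with the same replicate number did not deviate together (correlations of -0.20, -0.13 and 0.047, with 1 of 6 samples closest to its own number). Nothing states that equal numbers mark pairs, and so few samples cannot show that they do not. Upper-quartile factors moved the median of all genes by 0.07 and library size only by -0.07. The tables per sample and of the series differed in 0 values, so an analysis of the former gives no second value. Depth was not limiting for the members, with 1229 counts in a sample at the lowest, but it limits the lineage factors.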
